A study of Capsicum annuum with 78 samples.

Results

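Leaves of pepper (Capsicum annuum) plants kept at 40 °C for 72 h were compared with leaves of mock plants taken at 72 h. The comparison used the 3 libraries labelled heat at 72 h and the 3 labelled mock at 72 h, which are 6 of the 78 libraries of the series. All plants were of the cultivar CM334 and 6 weeks old, and no genotype or transgene differed between the groups. Heat plants stood at 40 °C and mock plants were not stressed. Before the treatment the plants grew at 24 °C with 16 h light and 8 h dark. Each biological replicate pooled leaves of 4 plants, so a library is the mean of a pool and the spread between plants was not measured. The same series holds heat and mock leaves of 3, 6, 12 and 24 h, mock leaves of 0 h, and leaves under cold, mannitol and NaCl.

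Heat unfolds proteins. Plant cells answer with heat shock transcription factors, which switch on genes of molecular chaperones that hold or refold damaged proteins. Small heat shock proteins are the chaperones whose transcripts plants raise most sharply in warm leaves, and some members of that family work inside the chloroplast. Leaves that stay warm for days keep part of this response while they acclimate.

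Heat at 72 h changed many genes in both directions. Of 19588 genes tested, 4791 (24.5%) were differentially expressed genes (DEGs). The limits were an adjusted p-value of 0.05 (edgeR quasi-likelihood test, Benjamini-Hochberg) and a log2 fold change of 1 in either direction. In heat 2171 DEGs (11.1%) were higher and 2620 (13.4%) were lower than in mock. The chloroplast chaperone gene HSP21 had the strongest rise on the fitted scale. Of the 1000 genes with the highest read counts in mock leaves, 30 were higher and 292 lower in heat. Choosing genes for their level in mock favours a fall. Of the 1000 genes with the highest read counts in heat leaves, 121 were higher and 123 lower.

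The size of the changes was similar in both directions. The median log2 fold change was 1.61 over the higher DEGs, -1.67 over the lower DEGs and -0.02 over all tested genes. The median standard error (SE) of a DEG was 0.29 on the log2 scale. A change beyond 4-fold was found in 736 higher and 940 lower DEGs, and a change beyond 16-fold in 143 higher and 163 lower DEGs. Beyond 64-fold there were 61 higher and 28 lower DEGs. Where a group has few or no counts, the fitted fold change is imprecise.

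**Figure D1:**
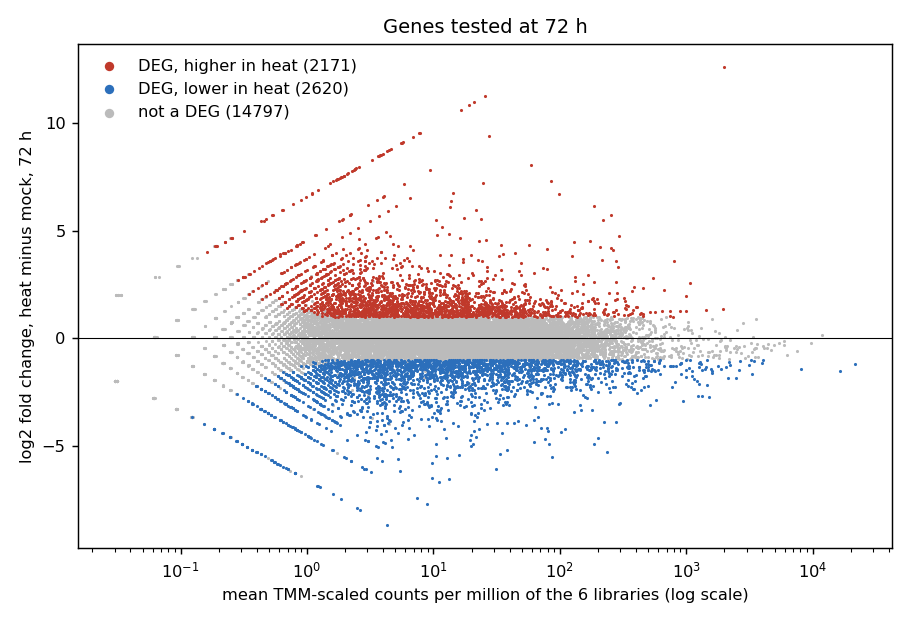
Each point is 1 of the 19588 genes tested at 72 h. The horizontal axis gives the mean CPM of the 6 libraries (counts scaled to the library total with TMM factors, the trimmed mean of M-values) on a log scale, and the vertical axis the log2 fold change of heat minus mock. Red points are the 2171 higher DEGs, blue points the 2620 lower DEGs and grey points the 14797 other genes. The straight lines of points at low CPM are genes with few or no counts in one group, and HSP21 is the red point at the top, with a log2 fold change of 12.61.

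The balance of the directions depended on the scaling. Without TMM factors, with library totals alone, 3449 DEGs were higher and 1796 were lower. The share of higher DEGs was then 65.8%, against 45.3% with TMM. The median log2 fold change of all genes was 0.27 without the factors, so every fold change given here is relative to a TMM scale that sets this shift near 0. Heat libraries held 4853451 to 5176297 counts and mock libraries held 6281044 to 6550169. The TMM factors lay between 1.02 and 1.09 in heat and between 0.835 and 0.865 in mock. Total counts did not overlap between the groups (two-sided exact permutation test, p = 0.1, the smallest p that 3 against 3 libraries can give). With every library thinned to the smallest total of the series, 4524 DEGs were called, of which 2343 were lower.

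The 6 libraries grouped as labelled. Replicates of heat had a correlation of log2 CPM over genes of 0.974 to 0.985, and replicates of mock 0.981 to 0.986. The library nearest to each of the 6 was one of its own group, and after those, a library of heat or mock at 24 h. Between 21350 and 22026 genes were detected in heat libraries and between 21406 and 21531 in mock libraries. The identity of the tissue was not checked against leaf marker genes, since the identifiers carry no annotation here.

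Gene identifiers are given without the prefix that all of them share. For 4 of them a symbol could be read from the study, where it stands for the best match in Arabidopsis, and the roles named with these symbols are those known in Arabidopsis. All other genes are named by identifier alone, with no role. CPM values are shares of a library and are not scaled to gene length, so they are compared between libraries and not between genes. In pooled leaves, fewer cells of a type and less RNA per cell cannot be told apart.

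HSP21 (scaffold303.8), the small heat shock protein of chloroplasts, stood at 3426, 4281 and 4226 CPM in the 3 heat libraries, against 0.547, 0.366 and 0.935 CPM in the 3 mock libraries. These levels came from 18617, 22487 and 21051 counts in heat and from 3, 2 and 5 counts in mock. The gene was near the detection floor in mock leaves and strongly expressed in heat leaves. The log2 fold change was 12.61 (SE 0.42, adjusted p = 2.17e-34, edgeR quasi-likelihood test, Benjamini-Hochberg). The ratio of summed counts was 6464 with an exact 95% interval of 3515 to 13481, which covers counting error only. At 72 h the gene also passed the limits in cold (log2 fold change 3.90, SE 0.56), mannitol (4.11, SE 0.56) and NaCl (3.41, SE 0.60) against the same mock libraries. Its levels there were 9.98, 7.18 and 11.5 CPM in cold, 6.12, 17.1 and 9.35 CPM in mannitol and 2.53, 2.22 and 15.1 CPM in NaCl. The folds in cold, mannitol and NaCl rest on few mock counts, and 1 NaCl library stood far above the others. Mock leaves at 0 h had 3.73, 2.74 and 3.65 CPM, above the 2.53 and 2.22 CPM in NaCl. Heat exceeded cold by 8.71 (SE 0.32) on the log2 scale.

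HSP21 stayed high through the heat course without a steady trend. In the order of the 5 times, 3 to 72 h, heat leaves averaged 5390 ± 489, 3128 ± 717, 1249 ± 179, 8359 ± 747 and 3978 ± 478 CPM (SD, n = 3 each). Mock leaves of the same times averaged 4.51 ± 0.276, 2.88 ± 1.06, 3.06 ± 0.116, 0.690 ± 0.287 and 0.616 ± 0.291 CPM (SD, n = 3 each). The heat effect at 72 h was not shown to differ from that at 24 h (difference -0.93, SE 1.04, adjusted p = 0.602 in the edgeR quasi-likelihood test). It exceeded that at 3 h (difference 2.40, SE 0.71, adjusted p = 0.00489 in the edgeR quasi-likelihood test). Heat leaves had 5390 CPM at 3 h and 3978 CPM at 72 h, while mock leaves had 4.51 and 0.616 CPM. Both differences rest on few mock counts.

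HGO (scaffold739.4), homogentisate dioxygenase of tyrosine breakdown, was higher in heat. It had 37.4, 33.9 and 41.6 CPM in heat libraries, against 18.4, 16.8 and 16.8 CPM in mock libraries, with no overlap. The log2 fold change was 1.11 (SE 0.12, adjusted p = 1.05e-11, edgeR quasi-likelihood test, Benjamini-Hochberg), which is close to the limit of 1. The effect was 2.08 (SE 0.12) at 3 h and 1.6 (SE 0.13) at 24 h. At 72 h the gene also passed the limits against mock in mannitol (1.17, SE 0.12) and NaCl (1.25, SE 0.12).

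RD26 (scaffold213.1), a NAC transcription factor of dehydration and abscisic acid signalling, was not a DEG at 72 h. Its levels were 80.8, 55.6 and 49.2 CPM in heat libraries, against 38.7, 51.9 and 43.2 CPM in mock libraries, and the ranges overlapped. The log2 fold change was 0.47 (SE 0.18, adjusted p = 0.0229, edgeR quasi-likelihood test, Benjamini-Hochberg). At 24 h the effect had been 2.15 (SE 0.20), and the difference between both effects passed the limits (-1.67, SE 0.27, adjusted p = 3.10e-06). Heat leaves had 62.0 ± 17.3 CPM at 24 h and 61.9 ± 16.7 at 72 h, while mock leaves had 14.0 ± 1.69 CPM at 24 h and 44.6 ± 6.74 at 72 h (SD, n = 3 each). Mock leaves were themselves higher at 72 h than at 24 h by 1.67 (SE 0.20) on the log2 scale.

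MOS4 (scaffold1129.32), a spliceosome-associated protein of plant immunity, showed the same direction below the fold limit. Heat libraries had 82.5, 72.2 and 78.7 CPM, against 41.2, 50.8 and 43.0 CPM in mock libraries, and the groups did not overlap. The log2 fold change was 0.79 (SE 0.09, adjusted p = 1.59e-10 in the edgeR quasi-likelihood test). The gene was a DEG at 6, 12 and 24 h, with 1.13, 1.46 and 1.40 on the log2 scale. At 72 h it passed the limit with library totals in place of TMM (1.09) and against mock at 24 h (1.29) or 0 h (1.06).

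**Figure D2:**
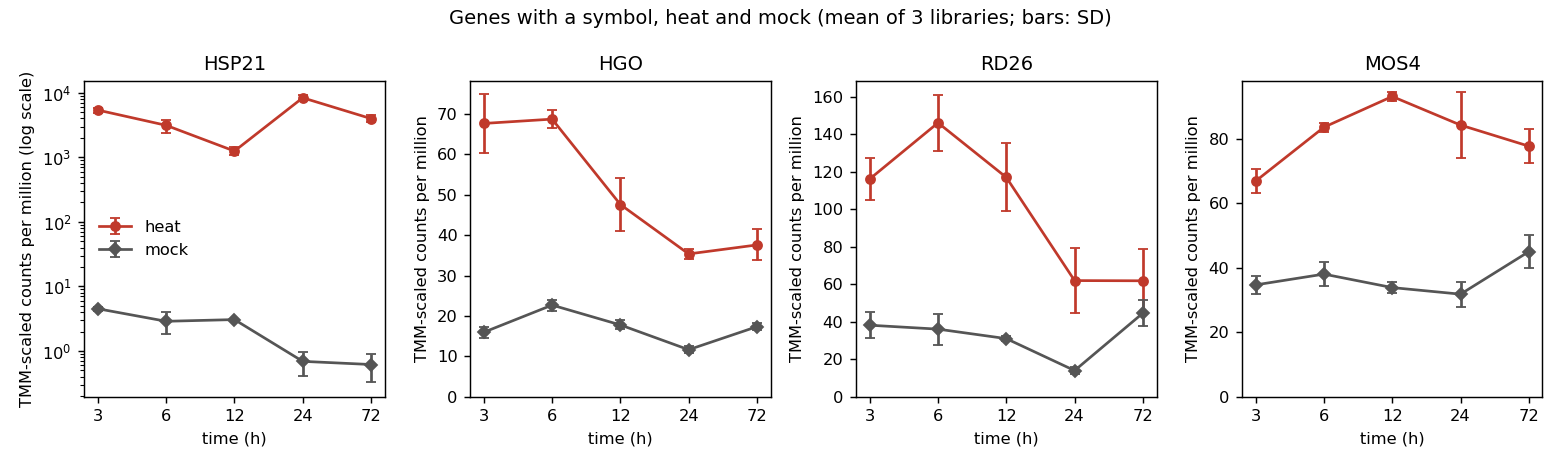
The vertical axes give TMM-scaled CPM of the 4 genes with a symbol, on a log scale for HSP21 only, and the horizontal axes the 5 times of harvest, evenly spaced. Red circles are heat and grey diamonds are mock, each the mean of 3 libraries with bars of 1 SD. Heat lies above mock at every time for HSP21, HGO and MOS4, while for RD26 the bars touch at 72 h, where mock rises to 44.6 CPM.

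The 6 higher DEGs with the smallest p-values joined genes with very large and with moderate folds. HSP21 was one of them. Scaffold394.89 had 397, 388 and 319 CPM in heat libraries, against 4.01, 4.57 and 6.73 CPM in mock libraries, a log2 fold change of 6.17 (SE 0.20). Scaffold525.11 had 512, 505 and 473 CPM in heat, against 7.30, 10.6 and 9.92 CPM in mock, a log2 fold change of 5.74 (SE 0.19). Scaffold394.87, which has a number close to that of scaffold394.89 on the same scaffold, had 342, 350 and 310 CPM in heat, against 12.8, 14.995 and 15.7 CPM in mock, a log2 fold change of 4.53 (SE 0.15). These 3 genes were far apart between the groups and tight within them, which a choice by smallest p-value favours. They were also DEGs in heat at 3, 6, 12 and 24 h. Scaffold869.28 had 1788, 1900 and 1797 CPM in heat, against 326, 302 and 297 CPM in mock (log2 fold change 2.57, SE 0.08). Scaffold773.22 had 270, 260 and 241 CPM in heat, against 47.3, 43.0 and 45.8 CPM in mock (2.5, SE 0.09). The latest harvest had the highest fold of these 2 genes. Scaffold773.22 stood at 0.60 and 0.38 at 3 and 6 h and at 1.75 at 24 h. Scaffold869.28 stood at 1.35, 0.98 and 1.81 at the same times. Mock leaves themselves changed from 24 to 72 h by -0.74 in scaffold773.22 and -0.90 in scaffold869.28 on the log2 scale. Against mock at 24 h, the heat libraries of 72 h gave folds of 1.76 and 1.67, near those of 24 h.

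Scaffold824.34 had the largest rise of the genes with more than 3 counts in each of the 6 libraries, a condition that HSP21 does not meet. It had 199, 211 and 176 CPM in heat libraries, against 0.912, 2.93 and 1.68 CPM in mock libraries (log2 fold change 6.71, SE 0.29). The effect was smaller than the 9.56 (SE 0.34) of 24 h, where mock libraries had only 6, 1 and 1 counts. Mock leaves themselves rose by 2.09 (SE 0.71) on the log2 scale from 24 to 72 h. Against mock at 24 h, the heat libraries of 72 h gave 8.80 (SE 0.34). At 72 h mannitol also raised scaffold824.34, to 30.6, 50.7 and 51.3 CPM, and so did NaCl, to 20.4, 18.7 and 28.1 CPM. Cold libraries had 1.80, 1.41 and 3.08 CPM. Heat remained above mannitol by 2.14 (SE 0.19) and above NaCl by 3.12 (SE 0.20) on the log2 scale.

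The 6 lower DEGs with the smallest p-values were all well counted in mock leaves. Scaffold1186.45 fell to 14.2, 10.3 and 11.04 CPM in heat libraries, against 466, 438 and 475 CPM in mock libraries (log2 fold change -5.28, SE 0.18). Scaffold246.5 fell to 8.28, 12.8 and 12.6 CPM in heat, against 194, 214 and 212 CPM in mock (-4.21, SE 0.17). Scaffold1184.6 fell to 6.63, 5.71 and 6.22 CPM in heat, against 101, 99.3 and 103 CPM in mock (-4.02, SE 0.16). In each of these 3 genes every heat library was far below every mock library, which a choice by smallest p-value favours. The other genes fell less. Scaffold383.5 had 96.3, 83.2 and 89.9 CPM in heat, against 408, 470 and 424 CPM in mock (-2.27, SE 0.09). Scaffold1150.2 had 177, 168 and 178 CPM in heat, against 858, 774 and 809 CPM in mock (-2.22, SE 0.08). Scaffold446.9 had 310, 333 and 320 CPM in heat, against 1283, 1324 and 1355 CPM in mock (-2.04, SE 0.07).

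The earlier course of these 6 genes was not uniform. Scaffold383.5 was lower in heat at all 5 times, between -2.27 and -1.32. Scaffold446.9 was near mock at 6 and 12 h, with log2 fold changes of -0.32 and 0.16, and fell by 1.65 at 24 h. Its mock level was itself far below that of 72 h, with 246, 232 and 223 CPM at 6 h and 156, 135 and 154 CPM at 12 h. Scaffold246.5 passed the limits at 24 and 72 h alone, with -2.67 and -4.21. Scaffold1186.45 passed the limits already at 3 h (-2.17, SE 0.15) and 6 h (-2.41, SE 0.20). It was at -3.30 at 24 h and at -5.28 at 72 h on the log2 scale, and its value at 12 h was -0.08 (SE 0.31). Mock leaves had only 3.20, 2.46 and 4.05 CPM of this gene at 12 h, which left little room for a fall. Cold at 72 h lowered scaffold1150.2 more than heat did, by 3.52 (SE 0.09), to 73.3, 73.7 and 65.0 CPM, and heat exceeded cold by 1.30 (SE 0.08).

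The largest falls among genes with more than 3 counts in each of the 6 libraries were those of scaffold702.9, scaffold1186.45 and scaffold1286.1. Scaffold702.9 had 2.39, 1.14 and 1.004 CPM in heat libraries, against 42.5, 117 and 37.4 CPM in mock libraries (log2 fold change -5.41, SE 1.15). The second mock library stood well above the others, so this fold is imprecise. Mock levels of this gene varied at other times too, with 514, 12.8 and 79.1 CPM at 6 h and 95.9, 3.44 and 3.18 CPM at 12 h. Scaffold1286.1 had 2.58, 1.33 and 2.21 CPM in heat, against 84.8, 62.4 and 76.9 CPM in mock (-5.18, SE 0.35). Mannitol and NaCl at 72 h went the other way for scaffold702.9, which was higher than in mock by 2.92 (SE 0.70) and 3.00 (SE 0.70) on the log2 scale.

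**Figure D3:**
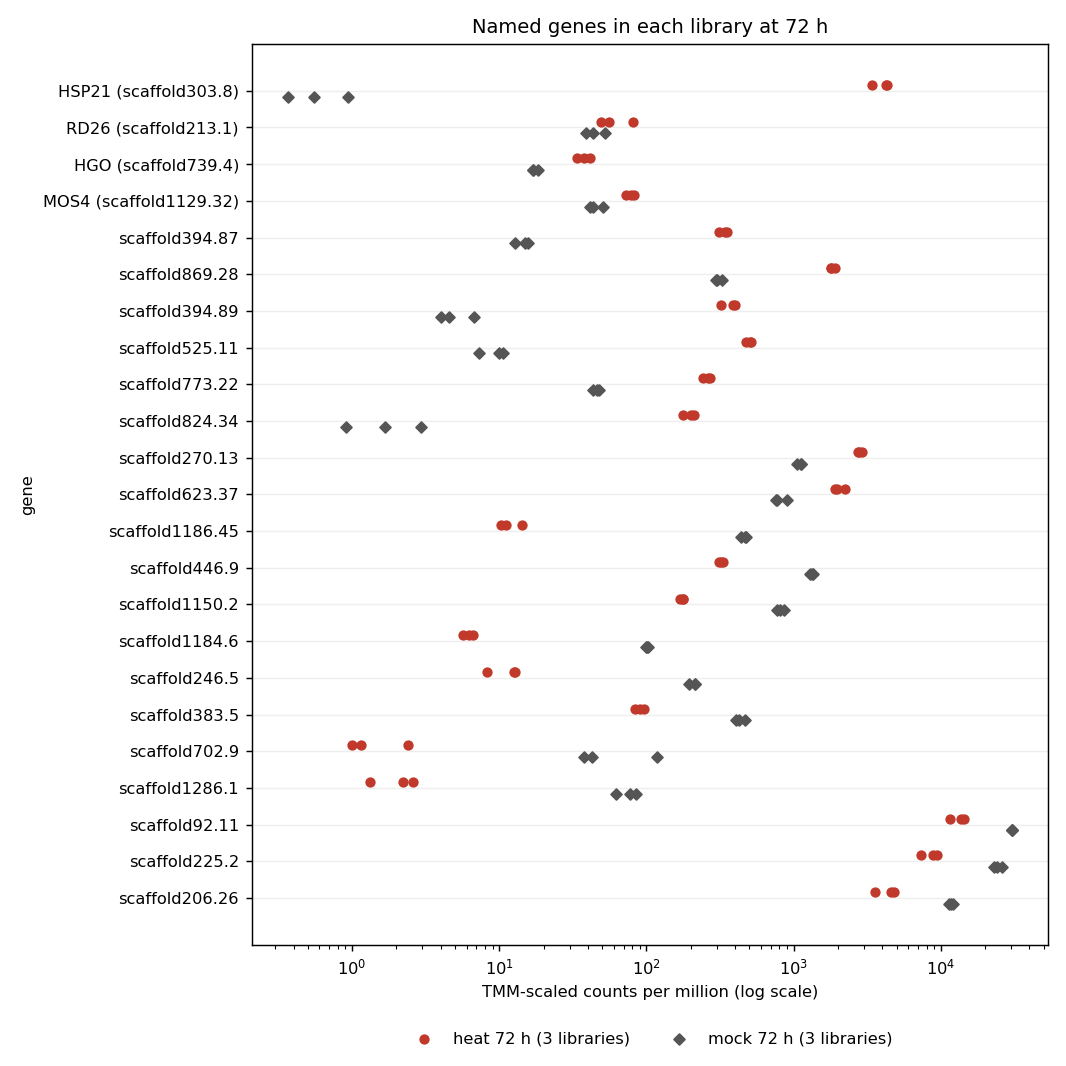
Each row is a named gene and the horizontal axis gives its TMM-scaled CPM on a log scale. Red circles are the 3 heat libraries and grey diamonds the 3 mock libraries of 72 h. The first 12 rows are the symbols and higher DEGs, where heat lies to the right, and the other rows are the lower DEGs, where heat lies to the left. Of all rows, the groups overlap in RD26 alone.

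Some genes had almost no counts in one group. With a floor of 3 counts in a library, 344 of the 2171 higher DEGs were at or under the floor in every mock library, and 370 of the 2620 lower DEGs were at or under it in every heat library. Most of them were low in the other group too, with median CPM of 1.85 in heat and 1.47 in mock. Only 12 of the 344 had more than 50 counts in every heat library, and only 4 of the 370 had more than 50 in every mock library. Of the 344 genes, 93 were at or under the floor in all 18 mock libraries of the series. At 24 h 234 of the 344 genes were called higher in heat, where 11.5% of all tested genes were. At all of the other 4 times 42 of the 344 were called higher, where 14.9% of all 2171 higher DEGs were. Of the 370 genes, 191 were called lower at 24 h, where 11% of all tested genes were. At all of the other 4 times 65 of the 370 were called lower, where 19.3% of all 2620 lower DEGs were.

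The 3 genes of this kind with the most counts in heat are given by their counts, since a fitted fold change against so few counts depends on the fit. Scaffold2086.2 had 280, 201 and 310 counts in heat libraries, against 0, 0 and 0 counts in mock libraries. Against the floor of 3 counts per library, it was at least 90.3-fold higher in heat. Scaffold1180.13 had 401, 208 and 259 counts in heat, against 0, 0 and 1 in mock, a ratio of 903 (exact 95% interval 162 to 35698). Scaffold1180.6 had 354, 172 and 242 counts in heat, against 3, 2 and 0 in mock, a ratio of 160 (exact 95% interval 68.2 to 493). All 3 were near the floor in the mock libraries of every time. Heat at 24 h gave far fewer counts than heat at 72 h, with 22, 21 and 14 in scaffold2086.2, with 8, 29 and 16 in scaffold1180.13 and with 11, 17 and 14 in scaffold1180.6. Near-identical copies may share reads, which was not checked for the last 2 genes, both on 1 scaffold.

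The corresponding genes on the lower side had fewer counts. Scaffold534.6 had 2, 2 and 0 counts in heat libraries, against 97, 176 and 153 in mock libraries, which made mock 102 times as high (exact 95% interval 39.7 to 378). Its mock counts varied widely, with 273, 3 and 131 in the mock libraries of 24 h but 0, 5 and 0 in those of 0 h, and against these last the fold was -0.34 and the call was lost. Scaffold2968.2 had 2, 1 and 0 counts in heat, against 154, 84 and 120 in mock, 115 times as high (38.9 to 559). Scaffold93.50 had 0, 2 and 1 counts in heat, against 200, 60 and 58 in mock, 102 times as high (34.6 to 497). Mock at 24 h had 13, 10 and 10 counts of this gene, far fewer than mock at 72 h. The intervals cover counting error only. Scaffold93.50 also fell at 72 h in cold (log2 fold change -5.24, SE 0.63), mannitol (-1.83, SE 0.46) and NaCl (-1.95, SE 0.46) against the same mock libraries. Mock libraries of the other times held at most 19 counts of this gene.

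Among the genes with the most read counts in mock, lower DEGs outnumbered higher ones. Of the 1000 genes with the highest CPM in mock at 72 h, 30 were higher, 292 were lower and 678 were neither in heat. Of the 100 genes with the highest CPM in mock at 72 h, 39 were lower in heat and the other 61 were not DEGs in the edgeR quasi-likelihood test, where over all tested genes 11.1% were higher and 13.4% were lower. Their median log2 fold change was -0.78. Together they took 21.98% to 25.1% of the counts of heat libraries and 32.3% to 32.8% of the counts of mock libraries. Choosing genes for their level in mock favours a fall, so the list chosen in heat is given too. Of the 100 genes with the highest CPM in heat, 11 were higher, 15 lower and 74 neither, and 73 genes were in both lists. Of the 1000 genes with the highest CPM in heat, 121 were higher, 123 lower and 756 neither, and 743 were in both lists. With library totals in place of TMM, 1 of the 100 mock genes was higher and 26 were lower, with a median of -0.49.

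The most counted genes took a smaller share of heat libraries. The 10 most counted genes of a library took 7.75% ± 0.536 of its counts in heat and 10.5% ± 0.206 in mock (SD, n = 3 each), a difference of -2.75 percentage points. The most counted gene took 1.40% ± 0.131 in heat and 2.59% ± 0.0391 in mock. Neither share overlapped between the groups (two-sided exact permutation test, p = 0.1 each, the smallest possible). Mock at 72 h also held the lowest TMM factor of the 78 libraries, 0.835, and a factor takes up such differences in composition. Their part in the fold changes was not tested.

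Scaffold92.11 was the gene with the most counts among the DEGs. It had 11508, 14386 and 13724 CPM in heat libraries, against 30378, 30531 and 30357 CPM in mock libraries (log2 fold change -1.20, SE 0.13). Scaffold225.2 had 7370, 8893 and 9365 CPM in heat, against 22925, 25999 and 24026 CPM in mock (-1.51, SE 0.12). Scaffold206.26 had 3571, 4575 and 4770 CPM in heat, against 11752, 11433 and 12116 CPM in mock (-1.45, SE 0.14). On the fitted scale heat had 0.434, 0.351 and 0.366 of the mock level of these genes, and the first heat library was the lowest in each. Against mock at 24 h in place of mock at 72 h, their folds were -0.89, -0.85 and -0.92 and missed the limit of 1, and scaffold92.11 also missed it without TMM factors (-0.91). Cold at 72 h lowered the same 3 genes by 2.59, 1.85 and 2.19 on the log2 scale.

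The higher DEGs with the most counts, beside HSP21, changed by a similar amount. Scaffold270.13 had 2756, 2927 and 2797 CPM in heat libraries, against 1118, 1053 and 1126 CPM in mock libraries (log2 fold change 1.36, SE 0.09). Scaffold623.37 had 2223, 1922 and 1959 CPM in heat, against 759, 898 and 770 CPM in mock (1.33, SE 0.12). Neither passed the limits in cold, mannitol or NaCl at 72 h, where their folds lay between -0.24 and 0.22. Scaffold623.37 was higher in heat at all 5 times and reached 2.73 at 12 h.

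Higher DEGs were less frequent among genes with more counts. Tested genes were divided into quartiles by their mean CPM over the 6 libraries, at 3.47, 13.1 and 36.8 CPM. The share of higher DEGs was 16.9%, 13.1%, 8.03% and 6.31% in the 4 quartiles in rising order of level. The share of lower DEGs was 17.3%, 13.8%, 9.33% and 13.2%. In the top quartile, 309 of 4897 genes were higher and 644 were lower.

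Heat at 72 h was compared with the other heat times, each against its own mock, so that no library was shared. Of the 2171 genes higher at 72 h, 1266 (58.3%) were also called higher at 24 h, where 11.5% of all tested genes were. The share was 29% at 12 h, where 9.58% of all tested genes were called higher. It was 31.7% at 6 h and 34.1% at 3 h, where 11.8% and 13% of all tested genes were called higher. Of the 2620 genes lower at 72 h, 1392 (53.1%) were also called lower at 24 h, where 11% of all tested genes were. The share was 39% at 12 h, 45.5% at 6 h and 40.5% at 3 h, where 10.1%, 13% and 11.5% of all tested genes were called lower.

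A core of genes held 1 direction through the whole course. Of the 19588 tested genes, 323 (14.9% of those higher at 72 h) were higher in heat at all 5 times. Lower at all 5 times were 506 genes (19.3% of those lower at 72 h). HSP21, HGO, scaffold394.87, scaffold394.89, scaffold525.11, scaffold824.34 and scaffold623.37 were among the higher ones, and scaffold383.5, scaffold1286.1, scaffold206.26 and scaffold2968.2 among the lower ones. Called at 72 h and at no other time were 540 higher genes (24.9%) and 549 lower genes (21%). A miss of the limits at other times does not show that these genes were unchanged then. The opposite call was found at 1 or more other times in 145 higher and 188 lower genes. From 3 to 24 h these were 85, 77, 52 and then 12 of the higher genes, and 110, 56, 90 and then 19 of the lower genes.

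**Figure D4:**
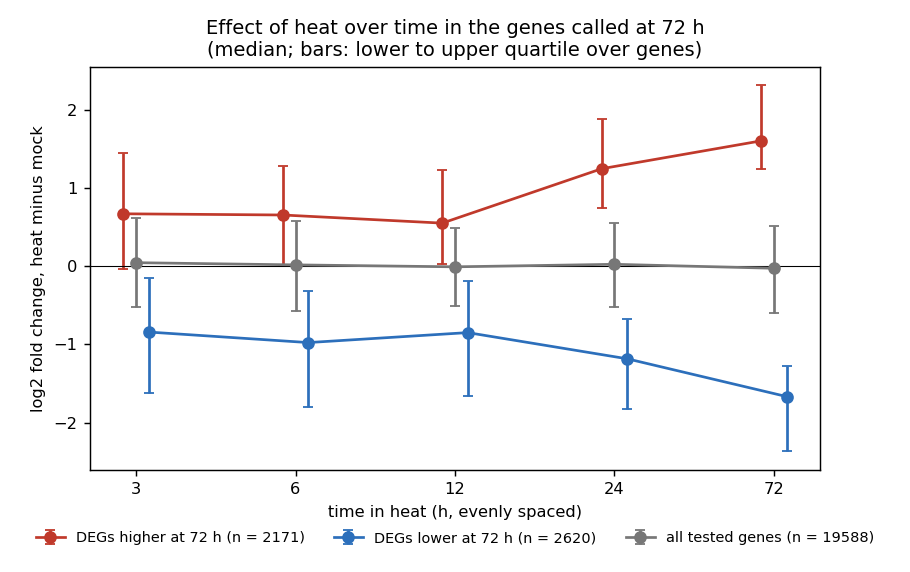
The vertical axis gives the log2 fold change of heat minus mock and the horizontal axis the 5 times in heat, evenly spaced. Points are medians over the 2171 genes higher at 72 h (red), the 2620 genes lower at 72 h (blue) and all 19588 tested genes (grey), and bars run from the lower to the upper quartile over genes. The genes were chosen at 72 h, so their larger values there are a description. The medians at 24 h were 1.25 and -1.18, and at 3 to 12 h they lay between 0.55 and 0.67 and between -0.98 and -0.84.

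The heat effect at 72 h was tested against that of earlier times in the same fit. It differed from that at 24 h in 1408 genes (7.19% of those tested), of which 640 had a more positive and 768 a more negative effect at 72 h. It differed from that at 3 h in 4397 genes (22.4%), of which 2002 were more positive and 2395 more negative.

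The DEGs whose effect differed most from 24 h by p-value showed that both groups had moved. Scaffold1340.1 had 292, 324 and 303.9 CPM in heat libraries, against 97.1, 80.8 and 84.4 CPM in mock libraries (log2 fold change 1.81, SE 0.09). At 24 h it had 193 ± 17.7 CPM in heat and 173 ± 11 in mock (SD, n = 3 each), so it was higher in heat and lower in mock at 72 h. Scaffold1543.1 had 47.7, 66.8 and 63.6 CPM in heat, against 12.0, 12.6 and 13.8 CPM in mock (2.21, SE 0.23). It was opposite at 24 h, with 15.7 ± 4.32 CPM in heat and 50.6 ± 14.3 in mock (SD, n = 3 each). Scaffold694.74 had 15.6, 16.6 and 14.7 CPM in heat, against 8.03, 7.50 and 7.86 CPM in mock (1.0018, SE 0.19), which is at the limit. Its call was also lost with RLE scaling, the filter of 1 CPM in 3 libraries, thinned libraries, DESeq2 and without the second mock library, with folds of 0.95 to 0.998. At 24 h it had 5.28 ± 0.818 CPM in heat and 24.2 ± 3.11 in mock (SD, n = 3 each). Against mock at 24 h the heat libraries of 72 h gave 0.23 for scaffold1543.1 and -0.63 for scaffold694.74, and against mock at 0 h they gave -0.16 and -0.60. The calls of these 2 genes were not made with either of the other controls, and that of scaffold1340.1 was lost against mock at 24 h (0.83).

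The 3 genes with the opposite difference were lower in heat at 72 h and not lower at 24 h. Scaffold78.106 had 130, 117 and 126 CPM in heat libraries, against 290, 330 and 249 CPM in mock libraries (log2 fold change -1.22, SE 0.12). Scaffold305.37 had 174, 177 and 158 CPM in heat, against 465, 463 and 410 CPM in mock (-1.40, SE 0.08). Scaffold889.10 had 46.0, 50.3 and 43.0 CPM in heat, against 167, 170 and 151 CPM in mock (-1.81, SE 0.16). Mock leaves had more of all 3 at 72 h than at 24 h, by 0.96, 0.56 and 1.37 on the log2 scale. Against mock at 24 h the folds of the heat libraries were -0.26, -0.83 and -0.44, and against mock at 0 h they were -0.60, -0.60 and -0.52. All of these missed the limit, as did scaffold78.106 with library totals in place of TMM (-0.92).

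Mock leaves changed between the times as well. Between 24 and 72 h, harvests at multiples of 24 h, 843 genes passed the limits in mock, 420 higher and 423 lower at 72 h. Between 0 and 72 h there were 1181, of which 498 were higher and 683 lower. With mock at 24 h as the control of the heat libraries of 72 h, 2230 genes were higher and 2442 lower, and 1508 of the 2171 and 1833 of the 2620 kept their call. With mock at 0 h there were 1878 higher and 2630 lower, and 1383 and 1767 kept it. These comparisons share the heat libraries of 72 h. HSP21 had a log2 fold change of 12.47 against mock at 24 h and 10.20 against mock at 0 h.

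DEGs of 1 direction also stood side by side in the numbering of the genes. Genes are numbered along each scaffold, and the order is taken here from the numbers, since coordinates were not used. Of the tested genes numbered next to a higher DEG, 17.1% were higher too, where 10.9% of all genes in the 12265 neighbouring pairs were. For lower DEGs the share was 21%, against 13.2% of all genes in pairs. Higher DEGs formed 199 runs of 2 or more with 428 genes, and lower DEGs formed 300 with 640 genes. Runs of 4 or more numbered 2 among the higher and 7 among the lower DEGs. Neighbours can be copies that share reads, which was not checked.

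The longest run had 7 lower DEGs, scaffold257.13 to scaffold257.19. Scaffold257.13 had 607, 888 and 966 CPM in heat libraries, against 2048, 1982 and 2112 CPM in mock libraries (log2 fold change -1.32, SE 0.19). Scaffold257.19 fell the most, to 260, 370 and 450 CPM in heat, against 2405, 2110 and 2440 CPM in mock (-2.69, SE 0.23). Scaffold257.15 had 88.5, 130 and 161 CPM in heat, against 651, 631 and 653 CPM in mock (-2.35, SE 0.20). The first heat library was the lowest in all 7 genes. Scaffold257.14, scaffold257.16, scaffold257.17 and scaffold257.18 had folds of -1.80, -1.70, -1.53 and -1.80 (SE 0.18, 0.24, 0.17 and 0.43). The last of these was the weakest in counts, with 20, 21 and 24 in heat and 121, 56 and 60 in mock, and it turned to 0.43 against mock at 24 h.

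The same 7 genes were lower in heat at 12 h by far more, between -8.36 and -4.12. The -8.36 (SE 1.25) was that of scaffold257.18, with 0, 0 and 0 counts in heat at 12 h, so its size depends on the fit. The next largest fall was -7.35 (SE 0.28) in scaffold257.13. At 72 h cold lowered the genes of this run more than heat did in 6 of 7 genes, by 1.86 to 4.11 on the log2 scale. For scaffold257.15 heat and cold were not shown to differ (0.41, SE 0.20, adjusted p = 0.0584 in the edgeR quasi-likelihood test). Mannitol and NaCl gave folds between -1.45 and -0.60 against the same mock libraries.

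**Figure D5:**
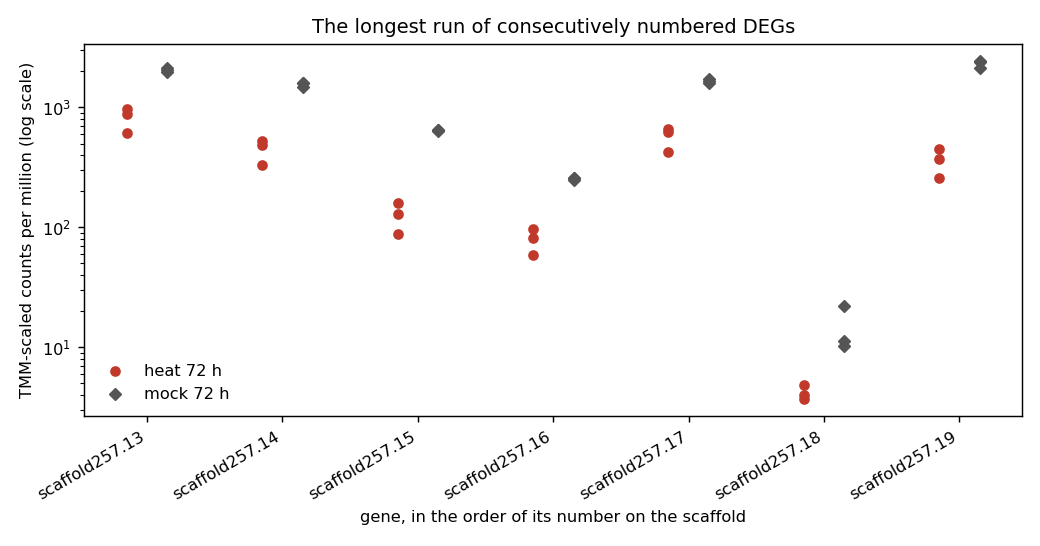
The horizontal axis gives the 7 genes scaffold257.13 to scaffold257.19 in the order of their numbers and the vertical axis their TMM-scaled CPM on a log scale. Red circles are the 3 heat libraries and grey diamonds the 3 mock libraries of 72 h. In each gene all heat libraries lie below all mock libraries, which the choice of lower DEGs favours.

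The next longest runs, by summed level among those of 4 genes, were lower in heat too. Scaffold981.1 to scaffold981.4 had folds of -3.65, -5.03, -4.50 and -3.08 (SE 1.31, 0.93, 0.83 and 0.83). Scaffold981.4 had 12.9, 0.952 and 1.004 CPM in heat, against 43.2, 38.8 and 47.0 CPM in mock, so 1 heat library stood apart. Without that library the fold was -5.39, and against mock at 0 h it was -1.06 and the call was lost. Scaffold981.1 had 4, 0 and 0 counts in heat, against 23, 17 and 16 in mock, and lost its call when the second or the third heat library was left out (-3.06 and -3.13), with DESeq2 (-3.81) and against mock at 24 h (-2.25) or 0 h (-0.79). Without the first heat library its fold was -7.37. Scaffold694.49 to scaffold694.52 had folds of -1.29, -1.55, -4.25 and -1.35 (SE 0.16, 0.13, 0.81 and 0.53). Scaffold694.49 missed the limit against mock at 24 h (-0.83) and 0 h (-0.75) and with library totals (-0.996), and scaffold694.50 against mock at 0 h (-0.80). Scaffold694.51 had 0, 1 and 0 counts in heat, against 13, 5 and 8 in mock. Scaffold694.52 had 5, 4 and 4 counts in heat, against 11, 6 and 18 in mock, and lost its call without any 1 of the heat libraries or without the third mock library, where it was -0.89.

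Heat at 72 h was set against the other stresses of 72 h directly. These comparisons share the heat libraries. Between heat and cold 6993 genes passed the limits (35.7% of those tested), 3618 higher and 3375 lower in heat. Between heat and mannitol 4893 did (25%), 1937 higher and 2956 lower in heat. Between heat and NaCl 3932 did (20.1%), 1632 higher and 2300 lower in heat. Against the shared mock libraries of 72 h, heat had 4791 DEGs, cold 6891, mannitol 1769 and NaCl 1134.

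The genes higher in heat at 72 h also lay above 0 in the other stresses at the median. Over these 2171 genes the median log2 fold change of heat was 1.61, and those of cold, mannitol and NaCl were 0.81, 0.36 and 0.46. Over the 2620 lower genes heat was at -1.67, and the other 3 stresses in that order were at -0.83, -0.31 and -0.36. The 4 comparisons share the mock libraries, so values of 1 sign are not independent.

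Heat stood apart from every other group of 72 h in part of its genes. It was above mock, cold, mannitol and NaCl, with the limits passed in all 4 comparisons, in 580 genes, and below all 4 in 781. At 24 h the same was found in 2.18% and 2.22% of all tested genes. Of the 580 genes 247 (42.6%) were above all 4 groups at 24 h too, and of the 781 genes 237 (30.3%) were below all 4. The libraries of the 2 times are separate. HSP21, scaffold394.87, scaffold394.89, scaffold525.11, scaffold270.13 and scaffold1340.1 were above all 4 groups at 72 h, and scaffold1186.45, scaffold1184.6, scaffold246.5, scaffold383.5 and scaffold1286.1 below them. HGO was not, with heat at -0.06 (SE 0.11) against mannitol and -0.14 (SE 0.11) against NaCl on the log2 scale, and neither was RD26, which was lower in heat than in mannitol by 1.42 (SE 0.17).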

How the data were processed

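RNA-seq libraries were made from pooled leaves with a strand-specific protocol and sequenced as 150 nt paired ends. According to the study's methods and the submitters' processing notes, the authors trimmed reads with cutadapt 1.9.1 and the NGS QC Toolkit, checked them with FastQC 0.11.5, aligned them with HISAT2 to the CM334 genome and counted them per gene with featureCounts 1.5.2. The strand setting of the counting is not given in the sources used here, so genes that overlap, lie antisense or have near-identical copies may share reads. The deposited table holds raw read counts of 35884 genes in 78 libraries, without normalization.

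Groups came from the stress and time labels. With edgeR 4.0.16 (limma 3.58.1, R 4.3.3), filterByExpr on the 26 groups left 19588 genes, which were scaled by TMM and fitted by the quasi-likelihood method with a single group factor over all 78 libraries (52 residual degrees of freedom, common biological coefficient of variation 11.4%). The Benjamini-Hochberg adjustment ran over all tested genes of a contrast. DEGs passed an adjusted p-value of 0.05 and a log2 fold change of 1 in either direction. The SE of a log2 fold change was its size divided by the square root of F. Totals were 4853451 to 6550169 counts in the 6 libraries, and 24615 genes had at least 1 count there. Reads carry no molecular identifiers, so counting intervals cover counting error only. Differences of effects between times were contrasts of the same fit. Tested on simulated data for heat against mock at 72 h, with 19402 genes kept, the fit called 98 of 100 genes changed by 1.5 on the log2 scale, 97 of 100 changed by 2.5, and 3 of 19202 unchanged genes. Weakly expressed genes were not among the changed ones. The changed genes were few and balanced in direction, so errors under a shift in library composition were not covered.

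The genes named in the text followed a rule: the 4 with a symbol, then in each direction the 6 smallest p-values, the 3 largest folds among genes over 3 counts in all 6 libraries, the 3 most counted genes with the other group at or under 3 counts, the 3 DEGs with the most counts, the 3 whose effect differed most from 24 h, and the 3 longest runs of consecutive numbers. The comparison, the rule and the lists were chosen with earlier results of these data known. Alternatives were DESeq2 1.42.0, other scalings, filters, thresholds, sample sets and controls, a replicate block, thinned libraries and each replicate left out. None of the identifiers (0 of 35884) was found among the 48341 genes of the name table at hand, so annotation, coordinates and sequences were not used.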

Additional observations from a re-analysis of the deposited data

Results flagged for a closer look

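The effect of heat differed between 72 h and 24 h in 1408 genes and between 72 h and 3 h in 4397 genes, by contrasts of the 2 effects in edgeR's quasi-likelihood fit. No group had the 4 samples that a check for outlying libraries needs.

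Among the named genes, the effect was more positive at 72 h than at 24 h in scaffold2086.2 by 6.44 (log2, SE 2.14, 0 counts in mock at 72 h, so the size depends on the fit), in scaffold1543.1 by 3.89 (SE 0.32), in scaffold694.74 by 3.19 (SE 0.27), in scaffold1340.1 by 1.65 (SE 0.13), in scaffold257.15 by 1.48 (SE 0.28) and in scaffold257.19 by 1.29 (SE 0.31). In the last 2 genes heat was below mock at both times and less so at 72 h.

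It was more negative at 72 h in scaffold702.9, with a difference of -5.34 (SE 1.47), in scaffold2968.2 with -4.28 (SE 1.29), in scaffold889.10 with -2.46 (SE 0.23), in scaffold1286.1 with -2.16 (SE 0.54), in scaffold78.106 with -1.99 (SE 0.16), in scaffold1186.45 with -1.98 (SE 0.23), in scaffold246.5 with -1.54 (SE 0.22) and in scaffold305.37 with -1.41 (SE 0.12). Scaffold824.34 (-2.85, SE 0.73), scaffold394.89 (-2.13, SE 0.33) and RD26 (-1.67, SE 0.27) were higher in heat at 24 h and had a smaller rise at 72 h. In RD26 the rise at 72 h missed the limit. Mock levels of scaffold702.9 varied widely between replicates, so its difference is imprecise. That of scaffold824.34 rests on few mock counts, with 6, 1 and 1 at 24 h.

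Mock leaves themselves passed the limits between 24 and 72 h in 6 of these genes. The change was -1.98 (SE 0.23) in scaffold1543.1, -1.64 (SE 0.18) in scaffold694.74, 1.67 (SE 0.20) in RD26, 1.37 (SE 0.16) in scaffold889.10, 1.32 (SE 0.38) in scaffold2968.2 and 2.09 (SE 0.71) in scaffold824.34.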

How the results depend on the processing

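The counts moved by over 1.5 times with the threshold and, in part, with the scaling. With glmTreat against a log2 fold change of 1, heat had 2419 DEGs at 72 h (1098 higher, 1321 lower), 112 higher and 171 lower at all 5 times, 156 for the difference from 24 h, 1691 for that from 3 h, and 4624, 2504 and 1772 against cold, mannitol and NaCl. With the adjusted p-value alone the counts were 10871 (5201 higher, 5670 lower), 1456 and 1745, 3817, 8309, 13003, 11147 and 9800 in the same order. With library totals 3449 genes were higher at 72 h and 526 at all 5 times. The difference of the share of counts was -1.19 percentage points for the most counted gene and -6.29 for the 100 most counted. Fitted with the heat and mock libraries of 72 h alone, 3950 genes were DEGs, and DESeq2 called 4699. The cause of these moves beyond the threshold was not tested.

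Leaving out each replicate in turn gave 4663 to 4800 DEGs, 2168 to 2345 higher and 2318 to 2618 lower, 292 to 331 higher and 469 to 509 lower at all 5 times, 1174 to 1518 for the difference from 24 h, 4109 to 4550 for that from 3 h, 6822 to 7126 against cold, 4701 to 5110 against mannitol and 3818 to 3929 against NaCl. The difference in the share of the 10 most counted genes lay between -2.98 and -2.45 percentage points, and that in total counts between -1478380 and -1310080.

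Signs turned with other controls in scaffold1543.1 (-0.16 against mock at 0 h), scaffold694.74 (-0.63 against mock at 24 h, -0.60 against 0 h) and scaffold257.18 (0.43 against mock at 24 h). Of the values of single genes, 34 lost their call and 4 gained one, and 856 kept both direction and call. The replicate numbers were not used to pair the samples. Deviations of same-numbered heat and mock libraries had correlations of 0.0409, 0.0124 and -0.0140. These values showed no clear shared deviation but cannot settle whether replicates were harvested in pairs. With the replicate block 4798 genes were DEGs, of which 4778 were among the 4791 with the same direction.

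Genes near the detection floor of 3 counts have folds that depend on the fit, and 3 pooled libraries a group limit the precision.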
